A study of Hypomesus transpacificus with 70 samples.

Results

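Gill transcription in delta smelt (*Hypomesus transpacificus*) at the end of a ramp into near-fresh water was compared with that of fish sampled before the ramp began. The comparison held 9 of the 70 arrays of the series, 4 from fish labelled 0 ppt at 6 hour and 5 from fish labelled 2 ppt at 0 hour, and these labels were the whole rule for choosing them. By the study's methods the salinities were 0.4 and 2.3 ppt, and the 6 h of the label were the time in which salinity was lowered, so that the treated fish are called 0.4 ppt at 0 h below, and the others pre-experiment fish. All were prespawning adults from a cultured refuge population, which had been held at 2.3 ppt in water made with artificial sea salt and moved to small flow-through containers on the evening before. The handling control, 6 fish that stayed at 2.3 ppt over the same 6 h in such containers, served for comparison, as did 4 fish each after 18 and 42 h at 0.4 ppt. The question was which transcripts had already changed when the target salinity was reached. Each array carried the RNA of 1 gill sample, but fish of 1 group may have shared a container, so container and group cannot be told apart and the p-values measure the spread between fish. The titles of pre-experiment and handling control fish carry a letter A, B or C, and those of 0.4 ppt fish carry none. Whether the letters mark containers is not stated.

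The gill is the surface across which a fish exchanges gas, takes up or loses salt, and meets microbes. In dilute water fish gain water and lose ions across it, and ionocytes with Na+/K+-ATPase and apical transporters recover salt. The same epithelium holds resident leukocytes, and cytokines of the interleukin-17 family, chemokines and their intracellular feedback inhibitors are the usual early signals of an irritated or injured mucosal surface in vertebrates.

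The annotated genes that rose in the 0.4 ppt fish at the end of the ramp included the cytokine il17a/f3, the chemokines ccl19 and CCL4, the receptor PTAFR and the inhibitors of cytokine signaling socs1a and socs3b. Of 14425 probes bright enough to test, 52, or 0.36%, differed between the 4 fish at 0.4 ppt and the 5 pre-experiment fish at an adjusted p under 0.05 in limma, 48 higher (0.333%) and 4 lower (0.0277%). At an unadjusted p under 0.05 the count was 2007 (13.9%), 1185 higher (8.21%) and 822 lower (5.7%). Of the 52 probes, 34 carry a gene name in the study's list of annotated probes and all 34 rose, while of the 18 unnamed probes 14 rose and 4 fell. When the probes of each gene were averaged in each fish, 15 of 376 annotated genes rose and none fell, against 30 of all 14226 genes and single probes (0.211%), of which 26 rose (0.183%) and 4 fell (0.0281%). At an unadjusted p under 0.05, 85 annotated genes were higher and 18 lower, where 13.6% of all rows passed, 7.89% higher and 5.72% lower. The annotated genes were chosen by the study on these same arrays for a response to salinity, so their share is no independent evidence.

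The median difference was 0.02 on the log2 scale over all rows and 0.13 over the 376 annotated genes, of which 241 were positive. All 15 called genes had every 0.4 ppt fish above every pre-experiment fish, which held for 661 of all rows, or 4.65%, and 425 rows, or 2.99%, lay wholly below. The fits without 1 fish called between 4 and 14 of the annotated genes. The count was 4 without fish 2 of 0.4 ppt, 6 without fish 3 and 8 without fish 1, and 9, 8 and 7 without pre-experiment fish A3, B4 and C4.

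The symbol il17a/f3, interleukin-17A/F-3 in the study's text, had the largest difference of the called genes on the processed signal. Interleukin-17A and F are secreted cytokines that induce chemokines and antimicrobial proteins in epithelia. The quantile-normalized log2 signal of il17a/f3, averaged over its 4 probes, was 4.67, 5.39, 5.73, 4.43 and 4.98 in the pre-experiment fish. It was 7.99, 8.72, 9.20 and 7.96 in the 0.4 ppt fish. The lowest treated fish thus lay above the highest pre-experiment fish, and the handling control lay between both groups, with a lowest, median and highest fish of 5.81, 6.49 and 7.69. The log2 difference from pre-experiment fish was 3.43 with an SE of 0.51, or 10.8-fold (limma, adjusted p 1.41e-04). With the normexp background correction it was 1.91, still past the threshold, and below the 2.47 of Pleckstrin homology domain-containing family F member 1. The probes belong to 2 assembled transcripts, which the study's annotation names interleukin-17F-like (isotig05374) and interleukin-17A/F-1 (isotig05375). Some pre-experiment values were near the limit of the measurement, since the 2 probes of isotig05375 were well above background in 3 and 4 of those 5 fish. Probes of both transcripts are shown because both rose and no run longer than 7 bases is shared between them. Whether the 2 transcripts come from 1 gene was not tested. In each sequence, written 5′ to 3′, capitals mark the 59 bases that a second probe shifted by 1 base also covers.
il17a/f3, isotig05374: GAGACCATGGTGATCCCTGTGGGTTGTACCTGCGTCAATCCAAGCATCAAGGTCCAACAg
il17a/f3, isotig05375: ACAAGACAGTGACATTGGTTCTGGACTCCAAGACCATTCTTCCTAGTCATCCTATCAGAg
The log2 difference was 3.15 for the first of these probes and 3.77 for the second. Because most called transcripts carry such a pair of nearly identical probes, 34 named probes stand for 20 assembled transcripts and 18 genes.

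The chemokines ccl19 and CCL4 rose with it. ccl19, which in mammals draws lymphocytes and dendritic cells, measured 11.44, 11.19, 10.95, 11.34 and 10.74 in pre-experiment fish and 12.64, 13.27, 14.60 and 13.05 at 0.4 ppt. Fish 3 of 0.4 ppt was the highest, and without it or either of fish 2 and pre-experiment fish C4 the gene was no longer past the threshold (adjusted p up to 0.185 in limma). The log2 difference was 2.26 with an SE of 0.47 (limma, adjusted p 0.0197), and the handling control ranged from 11.77 over a median of 12.11 to 12.46. Its probe is shown as the readout of that chemokine.
ccl19, isotig30043: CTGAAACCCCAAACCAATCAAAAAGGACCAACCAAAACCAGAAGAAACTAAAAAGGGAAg
CCL4 protein precursor, a chemokine class that attracts monocytes in mammals, measured 8.64, 7.87, 7.99, 8.33 and 7.57 in pre-experiment fish and 9.87, 10.31, 10.12 and 9.45 at 0.4 ppt. Here the handling control, at 8.12, 8.47 and 9.43 for its lowest, median and highest fish, reached up to the lowest treated fish. The log2 difference was 1.85 with an SE of 0.40 (limma, adjusted p 0.0212). il12ba, a subunit that interleukin-12 and interleukin-23 share, was 6.92, 6.97, 7.07, 7.06 and 5.94 before and 8.18, 8.53, 8.42 and 8.75 at the end of the ramp. Its log2 difference was 1.68 with an SE of 0.36 (limma, adjusted p 0.0206), from the single probe that carries its name.

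**Figure D1:**
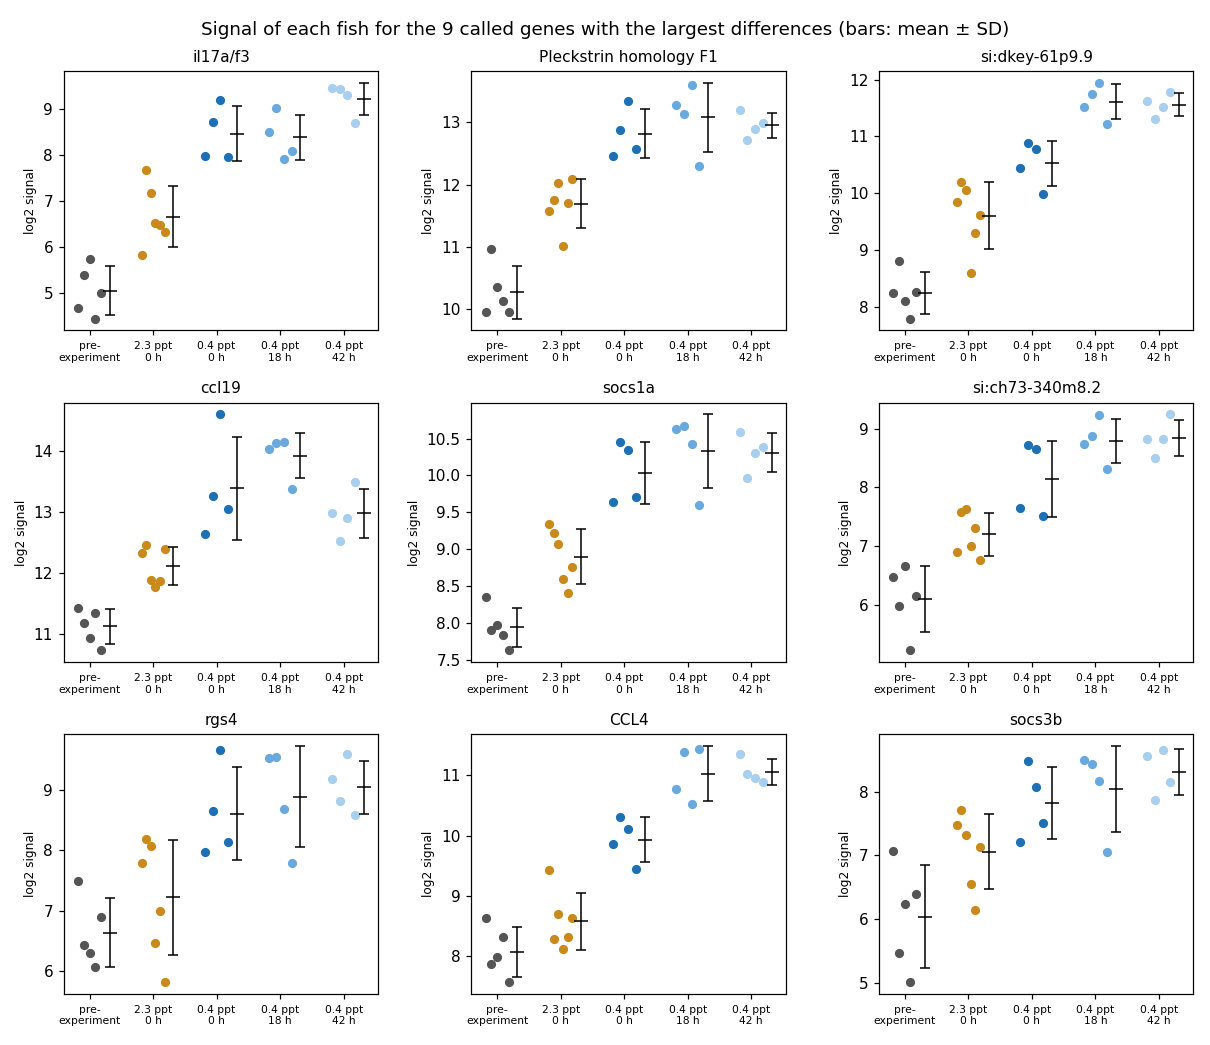
Log2 signal of each fish (points) with the group mean and SD (bars) for the 9 genes with the largest differences, in pre-experiment fish, the handling control at 2.3 ppt and 0.4 ppt at 0, 18 and 42 h. Pleckstrin homology F1 stands for Pleckstrin homology domain-containing family F member 1. All 4 fish of 0.4 ppt at 0 h sit above all 5 pre-experiment fish in every panel, and for il17a/f3 they run from 7.96 to 9.20 against 4.43 to 5.73.

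Of the 11 annotated cytokines and chemokines, 9 passed the filter on dim probes. These 4 rose and 0 fell, against 0.183% of all rows that rose, 7 were higher at an unadjusted p under 0.05, against 7.89% of all rows, and the median log2 difference of the 9 was 1.68, against 0.02 over all rows. Those not past the threshold included zgc:195195, annotated as similar to the chemokine CCL20, with a log2 difference of 1.54 and an SE of 0.38 (limma, adjusted p 0.0564). It measured 10.93, 11.07, 10.12, 10.31 and 10.06 before and 11.86, 12.17, 12.28 and 11.86 at 0.4 ppt, with no overlap. The interleukin-6 family cytokine m17 differed by 1.44 with an SE of 0.40, interleukin-1 beta (il1b) by 1.84 with an SE of 0.79, and putative interleukin-8 by 1.28 with an SE of 0.70, with adjusted p of 0.123, 0.325 and 0.396 in limma. The groups overlapped for il1b and the putative interleukin-8. The chemokine CU693369.1, annotated as C-C motif chemokine 21, went the other way, with a log2 difference of -0.73 and an adjusted p of 0.538 in limma. At 42 h its difference from the pre-experiment fish was -2.68.

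Feedback inhibitors of cytokine signaling rose in the same fish. socs1a and socs3b encode suppressors of cytokine signaling, which bind activated cytokine receptors or their JAK kinases and shut the signal off. socs1a measured 8.34, 7.90, 7.97, 7.84 and 7.62 in pre-experiment fish and 9.63, 10.46, 10.34 and 9.71 at 0.4 ppt. Its handling control fish had a lowest, median and highest value of 8.41, 8.91 and 9.34, so all 6 lay above the pre-experiment fish and below the treated fish. The log2 difference was 2.10 with an SE of 0.36 (limma, adjusted p 0.00134), and it stayed past the threshold without any 1 of the 9 fish. Its probe is shown because the gene kept its call in every such fit.
socs1a, isotig12577: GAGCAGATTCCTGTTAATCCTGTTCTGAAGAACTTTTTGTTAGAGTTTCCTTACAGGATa
socs3b measured 7.06, 5.47, 6.24, 5.01 and 6.40 before and 7.21, 8.47, 8.07 and 7.51 after, so that the groups nearly touched. Its log2 difference was 1.78 with an SE of 0.39 (limma, adjusted p 0.0212), and 1.08 with normexp (adjusted p 0.0877).

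zc3h12a, a ribonuclease that degrades cytokine mRNAs in mammals, differed by 1.12 with an SE of 0.25 (limma, adjusted p 0.0313). Its fish ran from 5.87 to 6.79 before and from 7.10 to 7.91 at 0.4 ppt. traf3ip2l is annotated as similar to CIKS, the adapter that joins interleukin-17 receptors to their downstream kinases in mammals, and differed by 1.07 with an SE of 0.23 (limma, adjusted p 0.0212). Its treated fish 1 to 3 lay between 8.30 and 8.53 and fish 4 was at 7.37, just above the highest pre-experiment fish at 7.32. Of 12 annotated genes of cytokine signal transduction 9 passed the filter, of which 4 rose (0.183% of all rows), 0 fell and 7 were higher at an unadjusted p under 0.05 (7.89% of all rows), with a median log2 difference of 1.07. The others included stat3, a transcription factor activated by interleukin-6 family receptors, with a difference of 1.07 (limma, adjusted p 0.0825). They also included socs2 and cish, further members of the suppressor family, at 1.15 and 0.86 (adjusted p 0.187 and 0.167 in limma). All 9 differences of this group were positive.

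Receptors and their regulators gave 2 more called genes. PTAFR, the receptor for the lipid mediator platelet-activating factor, measured 6.00, 5.30, 6.29, 5.41 and 5.03 before and 6.99, 7.21, 6.77 and 7.35 at 0.4 ppt. The lowest treated fish was above the highest pre-experiment fish and above the highest of the handling control, 6.58. The log2 difference was 1.47 with an SE of 0.34 (limma, adjusted p 0.039), and 0.84 with normexp (adjusted p 0.103). The transcript with the symbol rgs4, named regulator of G-protein signaling 16 in the study's annotation, belongs to a family that speeds the switching off of G proteins. It differed by 1.97 with an SE of 0.46 (limma, adjusted p 0.0417), from 7.50, 6.43, 6.30, 6.06 and 6.89 to 7.97, 8.65, 9.66 and 8.14. Its handling control spread from 5.81 to 8.18 and overlapped both groups, and leaving out any of 8 of the 9 fish lost the call, with an adjusted p of up to 0.279 in limma. PTAFR was lost without any of 7 fish, with an adjusted p of up to 0.175. Of 9 annotated receptor genes 7 passed the filter, 2 rose (0.183% of all rows), 0 fell, 5 were higher at an unadjusted p under 0.05 (7.89% of all rows), and the median was 0.75. IL17RA (1 of 4), a chain of the interleukin-17 receptor, stood at 0.75 with an adjusted p of 0.235 in limma.

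The remaining called genes were 5 transcripts of mixed annotation. Pleckstrin homology domain-containing family F member 1, a phosphoinositide-binding protein of endosomes in mammals, followed il17a/f3 in size on the processed signal. It measured 9.96, 10.97, 10.35, 10.13 and 9.95 before and 12.46, 12.87, 13.35 and 12.58 at 0.4 ppt. All 6 fish of the handling control, from 11.01 over a median of 11.7 to 12.10, lay between the groups. The log2 difference was 2.54 with an SE of 0.44, or 5.82-fold (limma, adjusted p 0.00134), and it was kept without any 1 of the 9 fish. Its probe is shown because the files name it by description only.
Pleckstrin homology domain-containing family F member 1, isotig30094: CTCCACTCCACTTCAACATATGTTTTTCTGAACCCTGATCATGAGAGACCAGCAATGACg
si:dkey-61p9.9, similar to NACHT, LRR and PYD domain proteins, a class that includes intracellular sensors of microbes and damage, measured 8.24, 8.81, 8.10, 7.79 and 8.25 before and 10.44, 10.88, 10.78 and 9.99 at 0.4 ppt. The log2 difference was 2.29 with an SE of 0.44 (limma, adjusted p 0.00648). Without fish 2 of 0.4 ppt the adjusted p was 0.0605.
si:dkey-61p9.9, isotig28359: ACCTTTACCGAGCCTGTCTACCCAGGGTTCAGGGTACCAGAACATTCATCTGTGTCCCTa
si:ch73-340m8.2, similar to a Src family tyrosine kinase, measured 6.47, 5.98, 6.66, 5.22 and 6.15 before and 7.65, 8.73, 8.66 and 7.51 at 0.4 ppt. The groups were apart, and fish 2 and 3 were about 1 log2 unit above fish 1 and 4. Its log2 difference was 2.04 with an SE of 0.35 (limma, adjusted p 0.00134). It too is read by probes of 2 assembled transcripts, shown for that reason. The first has a single probe in the study's list of annotated probes and is therefore written in lower case.
si:ch73-340m8.2, isotig20673: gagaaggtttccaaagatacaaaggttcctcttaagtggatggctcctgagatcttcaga
si:ch73-340m8.2, isotig28873: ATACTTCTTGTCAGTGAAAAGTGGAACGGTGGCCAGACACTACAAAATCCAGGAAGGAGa
The first of these differed by 2.20 and the second by 2.01.

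SH2D7 (1 of 2), a transcript named for an SH2 domain, rose by 1.62 with an SE of 0.37 (limma, adjusted p 0.0379), with fish 3 at 9.12 and the other 3 treated fish between 7.40 and 7.65, above the pre-experiment fish at 5.59 to 6.90. eya2, a transcriptional coactivator with phosphatase activity, rose by 0.98 with an SE of 0.20 (limma, adjusted p 0.0196). It was the only called gene of the immediate early and stress transcription regulators, of which 10 of 13 passed the filter, 7 were higher at an unadjusted p under 0.05 (7.89% of all rows), and the median was 0.88. Among these, cebpb, junba and tsc22d1, transcription regulators induced by cytokines or stress, differed by 1.34, 1.12 and 1.07, with adjusted p of 0.276, 0.146 and 0.162 in limma.

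A further 3 genes had 1 probe past the threshold among all probes but did not pass it at the gene level. They were stat3 and zgc:195195, given above, and ppp1r3cb, a subunit that directs protein phosphatase 1 to glycogen. For zgc:195195 and ppp1r3cb that was the only annotated probe kept, so the difference was the same and only the adjustment of p differed. ppp1r3cb measured 6.81, 5.87, 6.67, 6.03 and 7.0 before and 7.92, 8.49, 7.40 and 7.79 at 0.4 ppt, a difference of 1.43 with an SE of 0.35 (limma, adjusted p 0.0539). Next by p came si:dkey-239b22.1, similar to the mucosal scavenger receptor deleted in malignant brain tumors 1, at 1.05 (limma, adjusted p 0.0825). The lysosomal protease cathepsin L (ctsl.1) followed at 1.43 (limma, adjusted p 0.115), from 8.26, 7.69, 7.64, 8.02 and 7.69 to 8.65, 9.14, 9.28 and 10.11. Neither gene's groups overlapped. Of the unnamed probes, the 2 with the smallest p among those that rose and the 2 among those that fell were CUST_13181_PI428861894 and CUST_32617_PI428861894, which rose by 2.25 and 2.38 (limma, adjusted p 7.52e-04 and 0.00315), and CUST_6691_PI428861894 and CUST_33519_PI428861894, which fell by 1.51 and fell by 1.28 on the log2 scale (limma, adjusted p 0.0269 for each). The handling control differed from pre-experiment fish by 0.93 and 1.02 for the 2 that rose. For the 2 that fell it differed by -0.71 and -1.18. The 0.4 ppt fish differed from the handling control by 1.31 and 1.36, and by -0.80 and -0.10, so CUST_33519_PI428861894 was nearly as low in the handling control.

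For each of the 15 called genes the mean of the handling control lay between those of the other groups. No probe passed the threshold between 0.4 ppt and the handling control at 0 h, and none between the handling control and pre-experiment fish, in limma, while 1014 probes (7.03%, with 2.52% higher and 4.51% lower) and 1624 probes (11.3%, with 7.06% higher and 4.19% lower) had an unadjusted p under 0.05. Weighting the arrays by their own spread gave 63 and 1477 calls in their place, and 1402 higher and 960 lower between 0.4 ppt and pre-experiment fish. For the 15 called genes the handling control exceeded the pre-experiment fish by 0.26 to 1.62 with a median of 0.61, positive in 15, with adjusted p from 0.406 to 0.572 and an unadjusted p under 0.05 in 9, against 6.91% of all rows. The 0.4 ppt fish exceeded the handling control by 0.38 to 1.81 with a median of 1.08, again positive in 15, with adjusted p from 0.474 to 0.746 and an unadjusted p under 0.05 in 14, against 2.28% of all rows. The difference of the handling control was between 24.1% and 60.7% of that of the 0.4 ppt fish, with a median of 45.8%. These 3 comparisons share fish, so they are set side by side and are not independent. Every 0.4 ppt fish lay above every handling control fish in 7 of the 15 genes, which held for 0.766% of all rows. Every handling control fish lay above every pre-experiment fish in 5, which held for 0.907% of all rows. Since the genes were chosen by the 0.4 ppt and pre-experiment fish, none of these counts for the 15 genes tests anything. Nor does the place of the handling control mean between those of the other groups.

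The split was uneven between genes. eya2 differed by 0.60 in the handling control and by 0.38 beyond it at 0.4 ppt, and Pleckstrin homology domain-containing family F member 1 by 1.42 and 1.12. traf3ip2l differed by 0.26 and 0.81, CCL4 by 0.50 and 1.35, and rgs4 by 0.58 and 1.39. None of the second values passed the threshold. In the comparison with pre-experiment fish, lowered salinity and the 6 h of handling cannot be told apart.

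**Figure D2:**
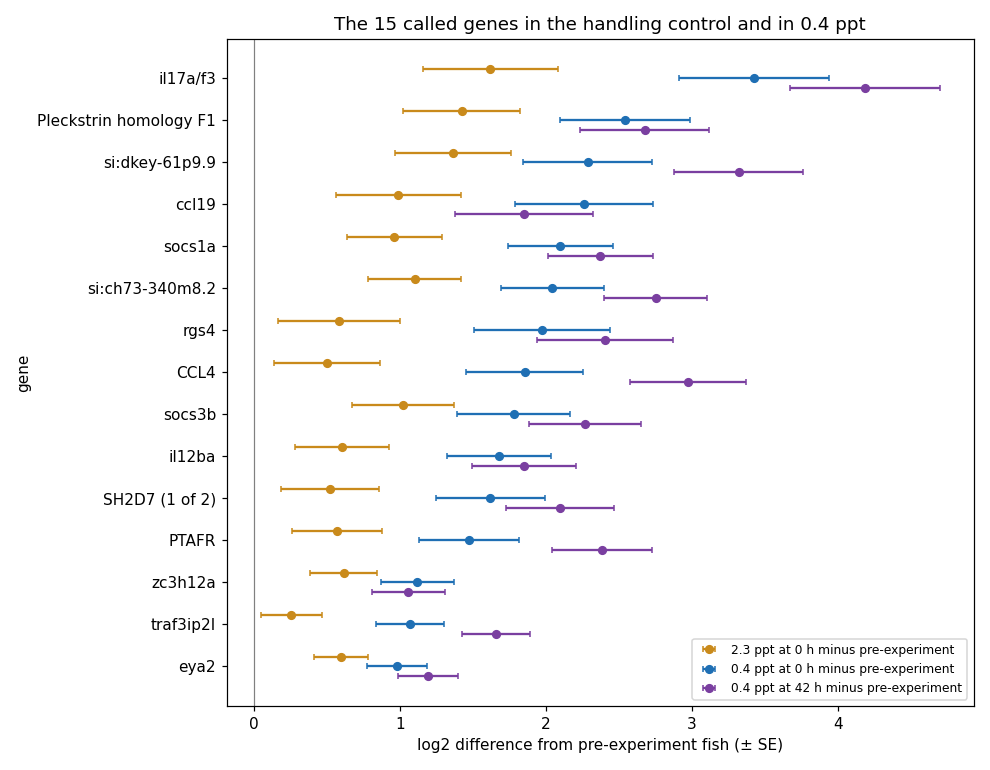
Log2 difference from the pre-experiment fish with its SE (bars) for the 15 called genes, in the handling control at 2.3 ppt at 0 h and in 0.4 ppt at 0 h and 42 h. The handling control is positive in 15 of 15 genes, from 0.26 to 1.62, and 0.4 ppt at 0 h lies further out in each.

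The rise was found in each 0.4 ppt fish, but not to the same extent. Fish 2 had the highest signal in 8 of the 15 genes, fish 3 in 5, fish 4 in 2 and fish 1 in 0. Fish 3 exceeded the other treated fish most for ccl19, rgs4 and SH2D7 (1 of 2), where it read 14.60, 9.66 and 9.12. The calls leaned on single fish to different degrees. Of the 9 fits that each left out 1 fish, 0 lost the call for il17a/f3, socs1a, Pleckstrin homology domain-containing family F member 1 and si:ch73-340m8.2. The call was lost in 1 for si:dkey-61p9.9, in 3 for ccl19, in 4 each for eya2, il12ba and socs3b, in 5 for CCL4, in 6 each for traf3ip2l and zc3h12a, in 7 for PTAFR and in 8 each for rgs4 and SH2D7 (1 of 2). Fish 3 also correlated least with the other treated fish, at 0.896 to 0.920 over all probes kept, although pairs of pre-experiment fish ranged from 0.839 to 0.952 and pairs of handling control fish from 0.811 to 0.944.

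**Figure D3:**
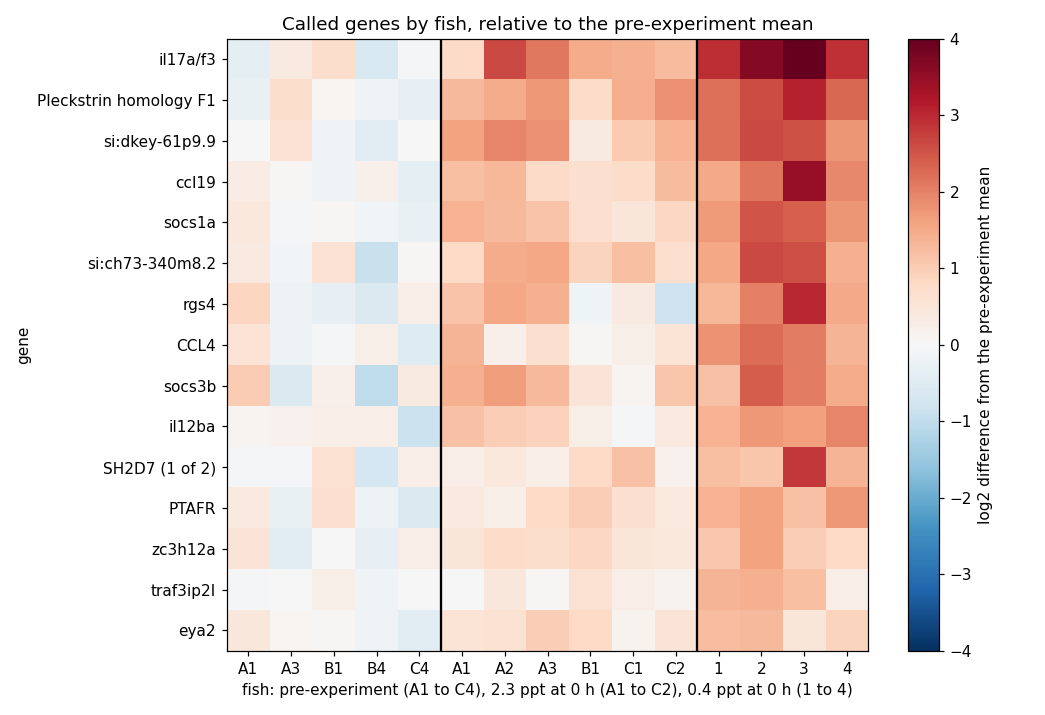
Difference of each fish from the pre-experiment mean (color, log2, scale ending at 4) for the 15 called genes, in 5 pre-experiment fish, 6 handling control fish and 4 fish of 0.4 ppt at 0 h. Fish 2 and 3 of 0.4 ppt are the darkest columns, with the highest signal in 8 and 5 genes, and the handling control is paler than 0.4 ppt.

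In other fish sampled later at 0.4 ppt, the 15 genes remained above the pre-experiment level. Their differences ran from 1.15 to 3.37 at 18 h and from 1.06 to 4.19 at 42 h, and 15 of 15 were past the threshold at each time, against 2.31% and 18.6% of all rows. Of the 376 annotated genes, 28.2% and 64.6% were past it, and the study had chosen those genes on the later arrays too. These comparisons again use the same 5 pre-experiment fish. Handling control fish sampled at 18 and 42 h were not compared, so time in the containers and low salinity cannot be told apart here. Between 0 h and the later times no gene of the 15 passed the threshold (0.0141% of all rows at 18 h and 5.7% at 42 h), with differences from -0.08 to 1.09 at 18 h and from -0.41 to 1.12 at 42 h, and 2 and 4 genes at an unadjusted p under 0.05 (7.78% and 19.3% of all rows). il17a/f3 stood at 3.35 and 4.19 above the pre-experiment fish at 18 and 42 h, and ccl19 at 2.79 and 1.85. ppp1r3cb, by contrast, was 0.03 above the pre-experiment fish at 42 h, and its fall from 0 h to 42 h by 1.39 passed the threshold (limma, adjusted p 0.0133).

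Genes for ion and water transport showed no called change at the end of the ramp. Of 16 annotated ion transport genes 14 passed the filter, 0 were called, and 5 were higher and 2 lower at an unadjusted p under 0.05, against 7.89% and 5.72% of all rows, with a median of 0.45. The median of the handling control against pre-experiment fish was 0.28, and that of 0.4 ppt against the handling control 0.05. slc12a2, the Na-K-2Cl cotransporter of salt-secreting ionocytes, measured 8.76, 8.06, 9.20, 7.96 and 8.68 before and 7.37, 6.93, 7.91 and 7.98 at 0.4 ppt. The groups overlapped, and its difference was -0.98 with an SE of 0.48 (limma, adjusted p 0.356), against -1.97 at 42 h (adjusted p 0.0027). The handling control at 0 h, with 7.05, 7.61 and 9.26 in its lowest, median and highest fish, overlapped both groups. kcnj1b, an inwardly rectifying potassium channel, stood at -0.54 (limma, adjusted p 0.515). The Na+/K+-ATPase subunits atp1a1a.1 and atp1a1a.4 stood at 0.87 and 0.99 with adjusted p of 0.25 and 0.346 in limma, without overlap of the groups.

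Among 9 genes of water channels, tight junctions and the epithelial surface, 0 were called, 4 were higher and 1 lower at an unadjusted p under 0.05 (7.89% and 5.72% of all rows), and the median was 0.61. The median of the handling control against pre-experiment fish was 0.48, and that of 0.4 ppt against the handling control 0.20. aqp3b, a channel for water and glycerol, came nearest, from 8.03, 7.50, 7.31, 8.08 and 8.56 before to 9.49, 9.99, 9.34 and 9.26 at 0.4 ppt. Its groups did not overlap, and the difference was 1.62 with an SE of 0.44 (limma, adjusted p 0.115), with 1.06 of it above the handling control. The tight junction gene cldn5a stood at 1.05 (limma, adjusted p 0.352).

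Other genes that the study discusses for 0.4 ppt gave smaller or unresolved values against pre-experiment fish at this time. The study compared salinities with handling controls, across times or at single times. The values below are against pre-experiment fish at 0 h unless stated, so they are not a test of its statements. odc1, the rate-limiting enzyme of polyamine synthesis, stood at 0.99 with an SE of 0.34 (limma, adjusted p 0.251), without overlap. FRRS1 (2 of 5), a ferric reductase, stood at 1.25 (limma, adjusted p 0.331) and was 1.87 higher at 42 h than at 0 h (adjusted p 0.041). acadm, an enzyme of fatty acid oxidation, stood at -0.35 against pre-experiment fish but at -1.38 against the handling control, which was itself 1.03 above the pre-experiment fish. The Wnt receptor fzd9a stood at -0.26 and thtpa, a thiamine triphosphatase, at 0.05. Against the handling control they stood at -0.33 and -0.75 (limma, adjusted p 0.88 and 0.563). The 0.4 ppt and pre-experiment fish overlapped for these last 3 genes. For acadm every 0.4 ppt fish, at 6.61 to 7.82, lay below every handling control fish, at 8.19 to 9.22. That difference was not past the threshold.

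The 72 annotated genes with no probe past the filter were fitted without it. None was called, against 0.041% of all rows of that fit, 18 were higher and 9 lower at an unadjusted p under 0.05, and the lowest adjusted p was 0.116 in limma. That belonged to TNFRSF9 (2 of 2), a receptor of the tumor necrosis factor family, at 2.58 with an SE of 0.62 and no overlap. Its mean log2 signal was 2.515 in pre-experiment fish, 3.10 in the handling control and 5.09 at 0.4 ppt. The difference thus started from values near the limit of the measurement. The chemokine si:ch211-202c4.2 measured 7.44, 5.58, 6.35, 6.09 and 5.11 before and 6.21, 8.98, 8.61 and 7.61 at 0.4 ppt. Fish 1 of 0.4 ppt lay within the pre-experiment range, and the difference was 1.74 with an SE of 0.61 (limma, adjusted p 0.461). gadd45ab, a growth arrest gene, stood at 0.79 (limma, adjusted p 0.479) and sord, sorbitol dehydrogenase, at 0.02.

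Lists of housekeeping functions held 0 called genes at this time and many later. Of 28 annotated genes of ribosome biogenesis 27 passed the filter, 0 had an unadjusted p under 0.05 at 0 h and the median was 0.12, whereas 5 were past the threshold against pre-experiment fish at 18 h and 26 at 42 h. Of 18 genes of protein folding and export in the endoplasmic reticulum 16 passed, 0 were called at 0 h with a median of 0.14, and 12 and 13 were at 18 and 42 h. Its members manf, a secreted stress protein, and hspa5, the chaperone BiP, stood at 0.90 and 0.46 (limma, adjusted p 0.297 and 0.399) without overlap of the groups. hspa5 was a further 0.95 higher at 42 h than at 0 h (limma, adjusted p 0.024). Of the 9 aminoacyl-tRNA synthetase and amino acid supply genes that passed, 0, 4 and 7 were past the threshold at 0, 18 and 42 h, and of the 13 of the proteasome and ubiquitin list 0, 1 and 9. Of the 9 for mitochondrial import 0, 2 and 7 were. At 18 and 42 h, 2.31% and 18.6% of all rows were past the threshold. Of the 376 annotated genes, from which these lists were drawn, 28.2% and 64.6% were. The annotated genes had been chosen on those arrays too. Handling control fish of 18 and 42 h were not compared, so low salinity and time in the containers cannot be told apart in these counts. asns, asparagine synthetase, went from 1.03 at 0 h (limma, adjusted p 0.35) to 3.33 at 42 h, a difference of 2.3 (adjusted p 0.0041).

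**Figure D4:**
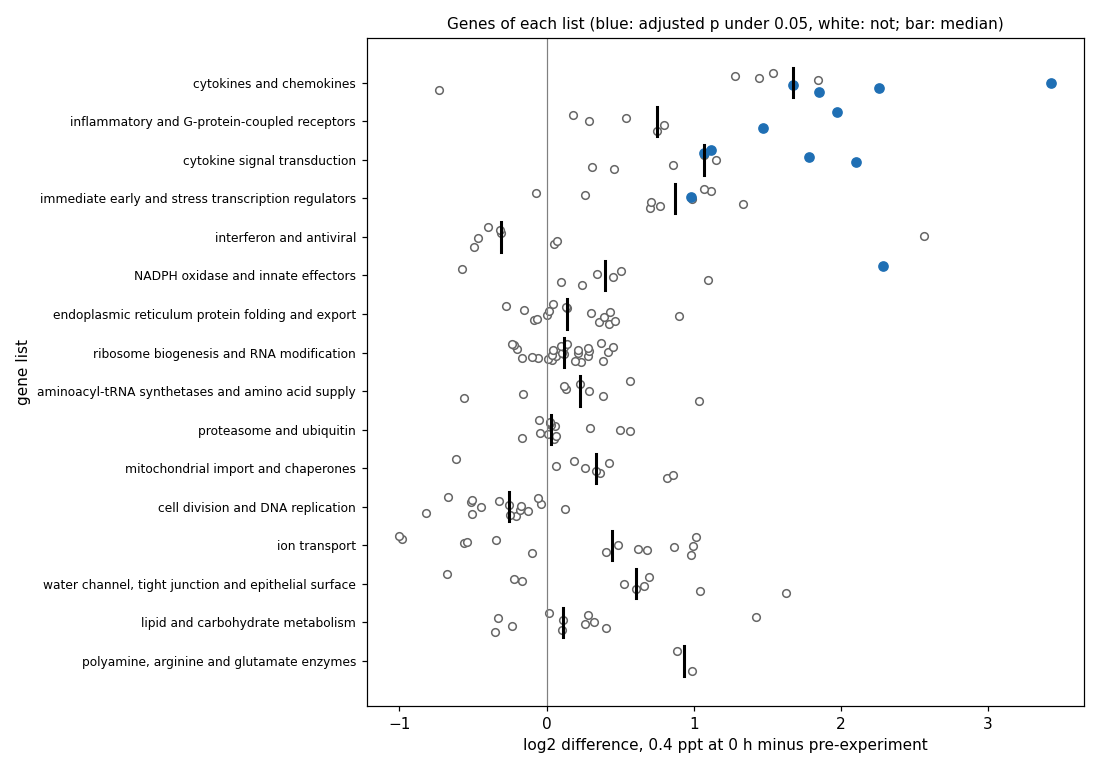
Log2 difference between 0.4 ppt at 0 h and pre-experiment fish for the annotated genes of each list that passed the filter (points, filled where the adjusted p is under 0.05), with the list's median (bar). Filled points occur in 5 of the lists, all above 0, and the medians run from -0.31 for interferon and antiviral genes to 1.68 for cytokines and chemokines.

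Most genes of cell division had negative differences, none past the threshold. Of 26 annotated genes 16 passed the filter, 0 were called, 15 of 16 were negative, 4 were lower at an unadjusted p under 0.05 (5.72% of all rows), and the median was -0.25. zwilch and spc24, of the kinetochore, and prim1, a DNA primase subunit, stood at -0.67, -0.51 and -0.51 with no overlap of the groups (limma, adjusted p 0.269, 0.295 and 0.328). Fish 3 of 0.4 ppt was the lowest in several of these genes, and the mean of the dividing cell markers was 6.84 in it and 8.01 to 8.23 in the other treated fish. Without it zwilch stood at -0.40, cenpe at -0.35 instead of -0.82, and ccnb1, a mitotic cyclin, at 0.22 instead of -0.51, while spc24 and prim1 stood at -0.43 and -0.55. The handling control stood low as well, with a median of -0.39 against pre-experiment fish and 7 genes lower at an unadjusted p under 0.05 (4.2% of all rows), and the 0.4 ppt fish had a median of 0.11 above it.

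No interferon or antiviral gene passed the threshold. Of 9 annotated genes 8 passed, 0 were called, 1 was higher and 2 were lower at an unadjusted p under 0.05 (7.89% and 5.72% of all rows), and the median was -0.31. irg1l, annotated as similar to the protein of immune-responsive gene 1, stood apart at 2.56 with an SE of 0.89 (limma, adjusted p 0.256). It reached 7.58 above the pre-experiment fish at 42 h, 5.02 more than at 0 h (limma, adjusted p 6.4e-04). Its pre-experiment values, 2.10 to 4.26, were near the limit of the measurement, with the probe well above background in 4 of those 5 fish. Under other processing the difference at 0 h was as low as 0.93. The gene ftr26, annotated as similar to the antiviral ligase TRIM25, stood at -0.47. The symbol ftr13 stood at -0.49 and covers probes that disagree, at 0.18 for a TRIM25-like transcript and at -0.79 and -0.87 for a transcript named VHSV-induced protein. Among the NADPH oxidase and innate effector genes 8 of 9 passed and 1, si:dkey-61p9.9, was called higher (0.183% of all rows). At an unadjusted p under 0.05, 2 were higher and 0 lower (7.89% and 5.72% of all rows), and the median was 0.40. The gene nox1, which makes superoxide at epithelial surfaces, stood at 1.1 (limma, adjusted p 0.189) without overlap.

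The summed level of leukocyte markers lay higher at the end of the ramp, although a single marker passed the threshold. The mean log2 signal of 8 of 9 listed markers (gpr84 was dim) ran from 7.39 to 7.71 in pre-experiment fish, from 7.71 to 8.09 in the handling control and from 8.09 to 8.54 at 0.4 ppt. The 0.4 ppt and pre-experiment fish did not overlap in this mean. Of the markers 8 of 8 were positive, as were 241 of the 376 annotated genes. Of these markers 1, PTAFR, was called, where 0.183% of all rows rose. Without PTAFR and irg1l the mean of the other 6 ran from 8.28 to 8.70, from 8.48 to 8.68 and from 8.59 to 9.21, so that the groups overlapped. Whether irg1l marks leukocytes in this tissue was not tested. In whole gill, more cells of a type and more RNA per cell cannot be told apart, and the part of leukocyte numbers in the called genes was not tested. The 6 ionocyte markers were all measured in this tissue, with means of 9.71 to 10.3 before and 9.65 to 10.1 at 0.4 ppt, and the dividing cell markers ran from 7.87 to 8.69 and from 6.84 to 8.23.

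**Figure D5:**
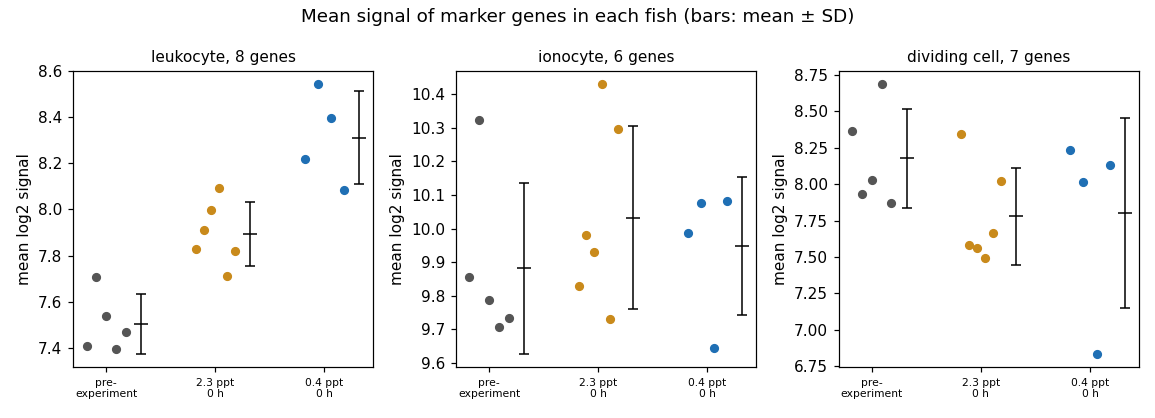
Mean log2 signal of the leukocyte, ionocyte and dividing cell markers in each fish (points) with the group mean and SD (bars) for pre-experiment fish, the handling control and 0.4 ppt at 0 h. The leukocyte mean runs from 7.39 to 7.71 in pre-experiment fish and from 8.09 to 8.54 at 0.4 ppt, whereas the ionocyte and dividing cell means overlap.

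The arrays differed in brightness, with a median signal of 12.9 to 103 in pre-experiment fish, 40.6 to 119 in the handling control and 44.6 to 94.3 at 0.4 ppt, of 12.9 to 131 over all 70. Fish of both groups occurred on each scan day and photomultiplier setting and, 1 of each, on 2 slides. Within these the differences of the 15 called genes ran from 0.62 to 4.06, with a sign that the absence of overlap between the groups already fixes. With scan day as a covariate 15 of the 15 kept the call, with the photomultiplier setting 13 and with brightness 12. PTAFR and rgs4 lost it under both of the latter, and zc3h12a with brightness.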

How the data were processed

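Each of 70 one-color arrays carried gill RNA from 1 fish. Control spots were left out, which left 36818 probes. The authors extracted a background-subtracted intensity per probe with Feature Extraction 11.5.1.1, per the file headers, not normalized between arrays. The deposited log2 table, which the authors quantile normalized and centered on each probe, served as an alternative. Here, 14425 probes reached a signal of 100 on 50% or more of the arrays and were tested, 2036 outlier spots (0.202%) were left out, and signals were quantile normalized and log2 transformed. Group means of 16 groups were fitted to the 70 arrays with limma 3.58.1 in R 4.3.3 with Benjamini-Hochberg adjustment across the probes tested, or across 14226 genes and single probes once the probes of each annotated gene were averaged. The fit had 54 residual and 3.39 prior degrees of freedom and a median residual SD of 0.45. Every adjusted p given is from limma. The report names the annotated genes past the threshold and those next by p up to 20, those the study discusses for 0.4 ppt, those with the smallest p in each list, and 4 unnamed probes. The members, gene lists and tests were chosen with earlier results of these data known.

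Array medians of 12.9 to 131 and the number of fish limit precision. On simulated data for this comparison (13736 probes), 48% of 100 probes changed by 1 log2 unit and 90% of 100 changed by 2 were recovered, and 6.12% of the 147 calls were false. The simulated noise was drawn independently for each probe and array, with the SD of a probe equal on all arrays. Arrays of unequal spread and pairs of nearly identical probes were not imitated, so these rates need not hold for the real arrays. Same-numbered fish of different groups had deviations correlated from -0.21 to 0.16 over 5 pairs, against -0.33 to 0.32 over 15 other pairs, so the numbers were not taken as pairs. Alternatives were other normalizations, filters, backgrounds, batch terms, tests, and leaving out each fish. The alternative background correction, normexp with an offset of 50, used the median spot signal.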

Additional observations from a re-analysis of the deposited data

Results flagged for a closer look

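Single fish stood apart from the others of their group in 15 of 255 combinations of gene and group, over 85 genes, where chance gives about 1 in 20. Fish 3 of 0.4 ppt at 0 h was such a fish in 9. It was the highest for SH2D7 (1 of 2) at 9.12, irg1l at 7.83, manf at 8.77, atp13a at 7.33 and lman2lb at 8.34, and the lowest for the cell division genes zwilch at 5.86, cenpe at 5.34, kifc1 at 7.01 and ccnb1 at 5.07. Fish 4 of 0.4 ppt stood apart for fzd9a at 9.10. Among pre-experiment fish, C4 did for il12ba at 5.94, B4 for f2rl1.2 at 4.79, A1 for irg1l at 2.10 and A3 for KCNJ16 at 9.28. In the handling control, fish A1 did for tomm40 at 5.45.

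The difference from pre-experiment fish changed between 0 h and 42 h at 0.4 ppt in 16 named genes at an adjusted p under 0.05 in limma. Whether these genes changed likewise in the handling control over that time was not tested. It moved upward by 5.02 for irg1l, 2.3 for asns, 1.87 for FRRS1 (2 of 5), 1.40 for cth, 1.35 for tomm40 (from -0.61 at 0 h), 1.06 for trmt6, 1.04 for sdhdb, 0.96 for yrdc, 0.95 for hspa5, 0.91 for prkcdb, 0.87 for IL17RA (1 of 4) and 0.80 for lman2lb. It changed by -1.39 for ppp1r3cb, -0.93 for si:ch211-202h22.8, -0.90 for sord and -0.78 for BX950862.1.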

How the results depend on the processing

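For 0.4 ppt at 0 h and pre-experiment fish, against 52 probes and 15 genes, a filter asking for the signal minimum on every array left 4 of 3201 probes and 2 genes, restricting the fit to the pre-experiment and 0 h groups gave 33 probes, and array weights gave 2362 probes (1402 higher and 960 lower, or 59.4% higher) and 86 genes (74 higher and 12 lower). No filter gave 8 genes, a filter on spots well above background 8, and the 9 arrays alone 9, of which 7 were among the 15. Scaling to the 75th percentile gave 37 probes and 11 genes, of which 10 were among the 15. Leaving out 1 fish gave 19 to 42 probes and 4 to 14 genes. The lowest was without fish 2 of 0.4 ppt, followed by 25 probes without fish 3 and 28 without pre-experiment fish B4. The comparison of 0.4 ppt with the handling control gave 0 probes under the alternatives run except array weights (63), and that of the handling control with pre-experiment fish gave 0 except without the filter (1) and with array weights (1477). The cause of these shifts was not tested, beyond the fewer probes and fish that some settings hold. Of the called genes, 6 had differences over 1.5 times smaller with normexp, namely il17a/f3 at 1.91, si:ch73-340m8.2 at 1.34, socs3b at 1.08, PTAFR at 0.84, zc3h12a at 0.74 and eya2 at 0.63. With normexp socs3b, PTAFR and SH2D7 (1 of 2) lost the call, and 12 of the 15 kept it. On the authors' log2 values eya2, zc3h12a and rgs4 lost it, and 12 kept it. Median scaling moved the median of all probes from 0.03 to 0.18 and called 61 probes, all higher. With the replicate number as a block the counts were 55 probes and 15 genes, and no count of the 3 comparisons moved by over 1.5 times.

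Genes near 0 changed sign. thtpa was -0.0896 with brightness as a covariate and ran from -0.0115 (without pre-experiment fish A1) to 0.134 when 1 fish was left out. sord was -0.036 with 75th percentile scaling and -0.0115 with slide as a block, and ran from -0.0375 (without fish 4 of 0.4 ppt) to 0.0831. cul3a was 0.0128 with brightness as a covariate. ccnb1 ran from -0.79 to 0.22, the latter without fish 3 of 0.4 ppt.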
